A study of Danio rerio with 12 samples.

Results

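The 6 genes described here are the zebrafish activators of the circadian clock: clocka, clockb, npas2, arntl1a, arntl1b and arntl2. They were taken by gene name from the 50640 genes of the deposited tables, and each name matched a single gene. The arntl genes are also known as bmal. The names were chosen with earlier results on their levels in these hearts known, so their levels across ages are described without a test. RNA sequencing measured zebrafish hearts at 6, 12, 24 and 36 months of age, in triplicate, which makes 3 libraries at each age and 12 in all, to follow the natural ageing of the heart. All fish are given as Danio rerio kept under standard conditions, with no treatment. The labels name no strain, sex, light schedule or time of day, and they do not say whether a library is 1 heart or a pool. P-values therefore measure only the spread between these libraries. Levels are in FPKM, fragments per kilobase scaled to the depth of the library, and so can be compared between genes.

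In the vertebrate clock, a CLOCK or NPAS2 protein pairs with an ARNTL (BMAL) protein, and the pair binds E-box sequences and switches on transcription. Among its targets are the period and cryptochrome genes, whose proteins act back on the pair as repressors, and the nr1d (Rev-erb) genes, whose products repress arntl and compete with the activating ROR receptors. Zebrafish hold duplicated copies of many of these genes. In zebrafish, peripheral tissues including the heart carry clocks of their own that respond directly to light, and the activators and the per and nr1d genes are high at opposite parts of the day.

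In the level of the activators 1 library stood apart, replicate 1 of 6 months. Some of the results that rest on it, but not all, are given with and without it. Reads assigned to genes ran from 7333060 to 11145869 per library. Of 14 heart muscle markers in the tables, 7 averaged at least 1 FPKM; the atrial peptide gene nppa ran from 3120 to 7022 FPKM, while gata4, tbx5a, vmhc and tnnt2a stayed below 1 FPKM in each library. Loci without a name lie on the same strand as 9 of the 14, and how reads in such an overlap were assigned is not given in the sources used here. The summed level of 7 hepatocyte markers was 171 FPKM in replicate 1 of 6 months and 575 in replicate 2 of 12 months, against 2.47 to 51.4 in the other libraries; tfa, one of the 7, was listed at 0 throughout. Replicate 1 of 6 months also had the highest sums of 6 macrophage markers (93.1 FPKM, and 27.5 and 26.0 in replicates 2 and 3 of its age) and of 8 fibroblast and epicardial markers (359, and 235 in both others). Its sum of 7 endothelial markers was 152 FPKM, and 276 and 333 in replicates 2 and 3 of its age. Other libraries came near these sums. Replicate 2 of 36 months had 151 FPKM of the endothelial and 76.3 of the macrophage markers. The fibroblast and epicardial sum of replicate 2 of 12 months was 348 FPKM. Matched skeletal muscle markers summed to 48.6 FPKM in replicate 2 of 36 months and to 1.67 to 7.99 in the other libraries. Heart muscle markers summed to 8292 to 11708 FPKM at 12 months, above each library of the other ages. Those sums were 6223 to 7638 FPKM at 6 months, 6341 to 7548 at 24 and 5189 to 6993 at 36. Erythrocyte markers summed to 367 to 501 FPKM at 24 months, below the 530 to 644 of 12 months. At 6 and 36 months they ran from 470 to 770 and from 437 to 941. In these sums nppa and cahz averaged 4731 and 531 FPKM. The macrophage and endothelial sums rest on few genes. Among macrophage markers mpeg1.1 reached 91.3 FPKM, csf1ra 2.85 and cd74a 0.101, while marco, mfap4 and ptprc were listed at 0. Of the endothelial markers only kdrl, egfl7 and flt1 averaged at least 1 FPKM, and cdh5 and tie1 were listed at 0. Unnamed loci overlap 5 of 6 macrophage, 5 of 7 endothelial, 6 of 7 erythrocyte, and 4 of 8 fibroblast and epicardial markers on the same strand. The part of these markers in the results was not tested. In replicate 2 of 12 months arntl1a, arntl1b, arntl2 and clocka each lay between the other libraries of that age.

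The arntl genes encode the partner shared by CLOCK and NPAS2, and arntl1a was the highest of the 6 genes in 12 of 12 libraries. This gene, ENSDARG00000006791, lies on the minus strand of chromosome 25 at 17797384 to 17822410 (GRCz11), with 2413 bases of transcript counted. Its level was 7.92, 23.0 and 18.5 FPKM in replicates 1, 2 and 3 of 6 months and 15.8, 18.1 and 18.7 at 12 months. At 24 months it was 31.9, 31.5 and 37.8 FPKM, and at 36 months 21.8, 23.9 and 23.9. Each 24-month library lay above each of the other 9, and replicate 1 of 6 months lay below the rest. The mean of 33.7 ± 3.52 FPKM at 24 months was 1.92 times the 17.5 ± 1.52 FPKM at 12 months (SD, n = 3 each; 0.90 ± 0.29 higher in log2(FPKM + 1), difference ± SE). The mean of 23.2 ± 1.22 FPKM at 36 months was 0.687 of that at 24 months, and its range overlapped with that of 6 months but not with that of 12 months. In a whole heart, fewer cells that express a gene and less RNA per cell cannot be told apart. The hour of collection is not given, so differences by age and by time of day cannot be told apart either. This holds for every gene described here.

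By the levels listed under the gene names, the paralogue arntl1b was the next highest in 12 of 12 libraries. It is ENSDARG00000035732, on the plus strand of chromosome 7 at 65824454 to 65882180. It had 0.73, 6.28 and 4.55 FPKM in the 3 libraries of 6 months, 4.08, 4.92 and 6.28 at 12 months, 13.0, 13.1 and 16.1 at 24 months, and 5.67, 7.59 and 7.47 at 36 months. The 24-month libraries were again the highest, with no overlap with any other age, and the ranges of 6, 12 and 36 months overlapped with one another. Its mean at 24 months was 14.1 ± 1.74 FPKM, 2.76 times the 5.09 ± 1.11 FPKM of 12 months (log2 difference 1.32 ± 0.42, ± SE), and its 36-month mean of 6.91 ± 1.07 FPKM was 0.491 of that at 24 months. The lowest value, in replicate 1 of 6 months, rests on 28 reads, and the 24-month values rest on 454 to 531.

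The third gene, arntl2, encodes a second BMAL protein. It is ENSDARG00000041381, on the minus strand of chromosome 18 at 15601115 to 15642344. Its level was 0.518, 1.21 and 1.28 FPKM at 6 months, 0.969, 1.17 and 1.31 at 12 months, 3.76, 2.75 and 4.47 at 24 months, and 2.08, 1.36 and 1.86 at 36 months. The libraries of 24 months stood above all others, and those of 36 months lay above those of both 6 and 12 months without overlap. The mean of 3.66 ± 0.863 FPKM at 24 months was 3.19 times the 1.15 ± 0.17 FPKM of 12 months (SD, n = 3 each). On the log2(FPKM + 1) scale, which understates the change of low genes, that difference was 1.1 ± 0.22 (± SE). The mean of 1.77 ± 0.372 FPKM at 36 months was 0.483 of that at 24 months.

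**Figure D1:**
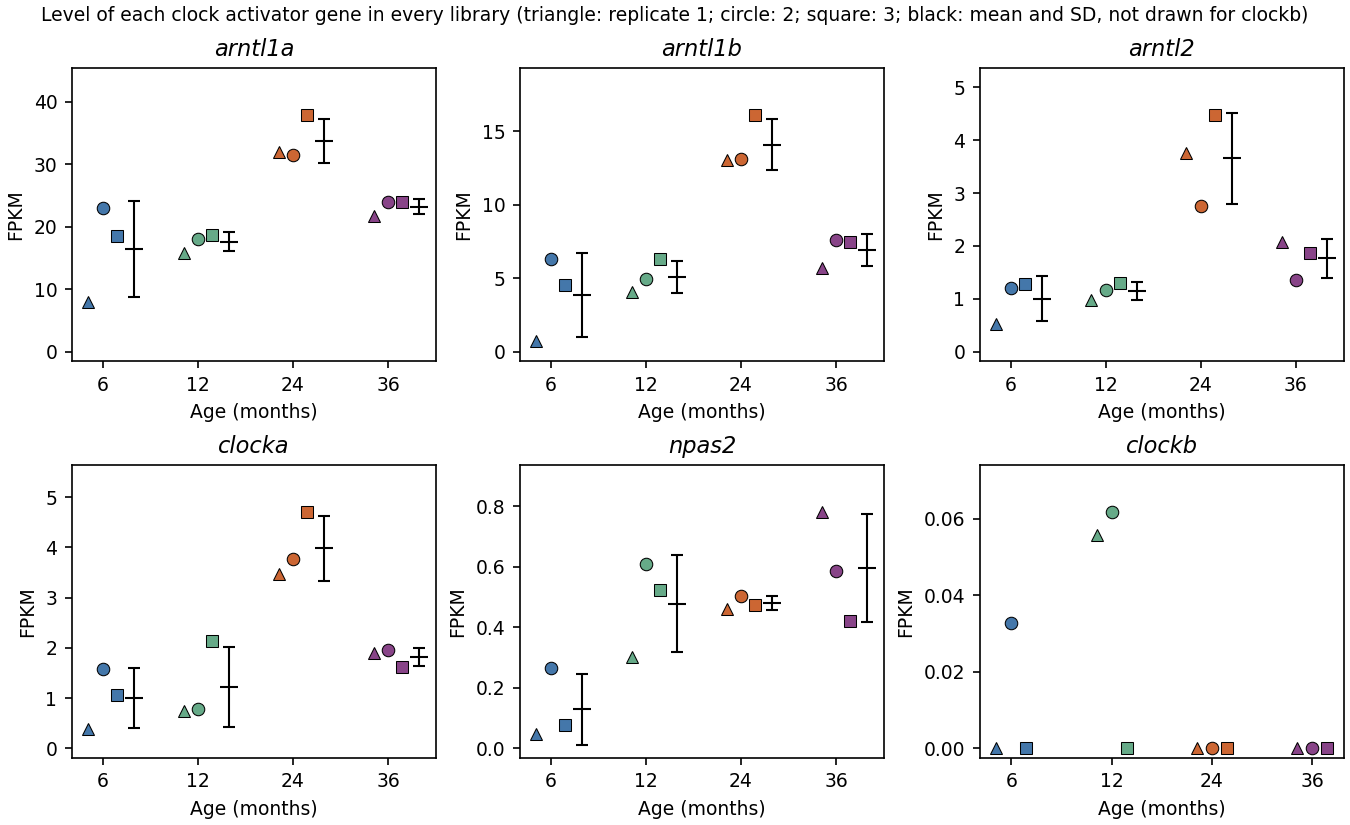
FPKM of the 6 activators (vertical axis, a separate scale for each gene) against age in months, with a triangle, circle and square for replicates 1, 2 and 3 and black bars for mean and SD (not drawn for clockb). For arntl1a, arntl1b, arntl2 and clocka the 3 libraries of 24 months lie above the other 9, and replicate 1 of 6 months is the lowest; npas2 has no such peak, and clockb is at 0 in 9 libraries.

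CLOCK is a partner of ARNTL in the activator pair, and clocka was the one clock paralogue listed above 0.1 FPKM under its own name. The level of clockb is unknown, as described below. The clocka gene is ENSDARG00000011703, on the plus strand of chromosome 20 at 22167664 to 22276330. An antisense RNA gene overlaps it on the other strand, with 9 reads over all libraries against 1470 for clocka. The level of clocka was 0.391, 1.58 and 1.06 FPKM at 6 months and 0.75, 0.778 and 2.14 at 12 months. It was 3.46, 3.78 and 4.70 FPKM at 24 months and 1.91, 1.95 and 1.62 at 36 months. As with the arntl genes, the 24-month libraries were above all others. Replicate 3 of 12 months had more than each library of 36 months, so these ages overlapped, while 36 months lay just above 6 months without overlap. The 24-month mean of 3.98 ± 0.644 FPKM was 3.26 times the 1.22 ± 0.793 FPKM of 12 months (log2 difference 1.21 ± 0.28, ± SE), and the 36-month mean of 1.83 ± 0.182 FPKM was 0.459 of that at 24 months. Levels of clocka and arntl2 were not separated: clocka was the higher of the pair in 5 of 12 libraries.

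NPAS2 can take the place of CLOCK in the activator pair, as known from mammals. The npas2 gene, ENSDARG00000016536, lies on the plus strand of chromosome 5 at 22261395 to 22331811. It stayed under 1 FPKM throughout, with 0.0464, 0.264 and 0.0759 FPKM at 6 months and 0.301, 0.609 and 0.524 at 12 months. At 24 months it had 0.46, 0.504 and 0.472 FPKM, and at 36 months 0.78, 0.585 and 0.422. Here the hearts of 6 months lay below each library of the 3 later ages, whose ranges overlapped. The nearest values were 0.264 FPKM at 6 months and 0.301 at 12 months, on 18 and 24 reads. The share of all genes with this order is not given here, so nothing is read from it. The 36-month mean of 0.596 ± 0.179 FPKM was 4.62 times the 0.129 ± 0.118 FPKM of 6 months, and 3.50 times without replicate 1 of 6 months. The 6-month values rest on 4, 18 and 6 reads. A locus without a name covers all of npas2 on the same strand and starts 57401 bases before it. That locus had 0.117 to 0.626 FPKM over the 12 libraries, and its means of 0.321 ± 0.184, 0.306 ± 0.076, 0.352 ± 0.253 and 0.437 ± 0.099 FPKM at 6, 12, 24 and 36 months came with ranges that overlapped between all ages. How reads were divided between gene and locus is not known, so the level of npas2 is uncertain.

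The second clock gene, clockb, was almost without reads. It is ENSDARG00000003631, on the plus strand of chromosome 1 at 18740067 to 18773516. It held 1 read in replicate 2 of 6 months, 2 reads in each of replicates 1 and 2 of 12 months, and 0 in the other 9 libraries. A count of 0 allows a level of up to 0.0715 to 0.111 FPKM, taking 3 reads as the limit, for counting error only. A locus without a name, from 18740070 to 18775771 on the same strand, covers all but the first few bases of clockb and runs 2255 bases past its end. That locus held 2062 reads in all, with 2.60 to 3.76 FPKM in single libraries. Its means were 3.22 ± 0.176 FPKM at 6 months, 3.17 ± 0.12 at 12, 3.52 ± 0.22 at 24 and 3.19 ± 0.521 at 36 months (SD, n = 3 each). It showed no peak at 24 months like that of clocka: the range of 24 months overlapped with those of 6 and 36 months, and lay just above that of 12 months. Whether its reads are transcripts of clockb was not tested, so the level of clockb in these hearts is unknown.

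**Figure D2:**
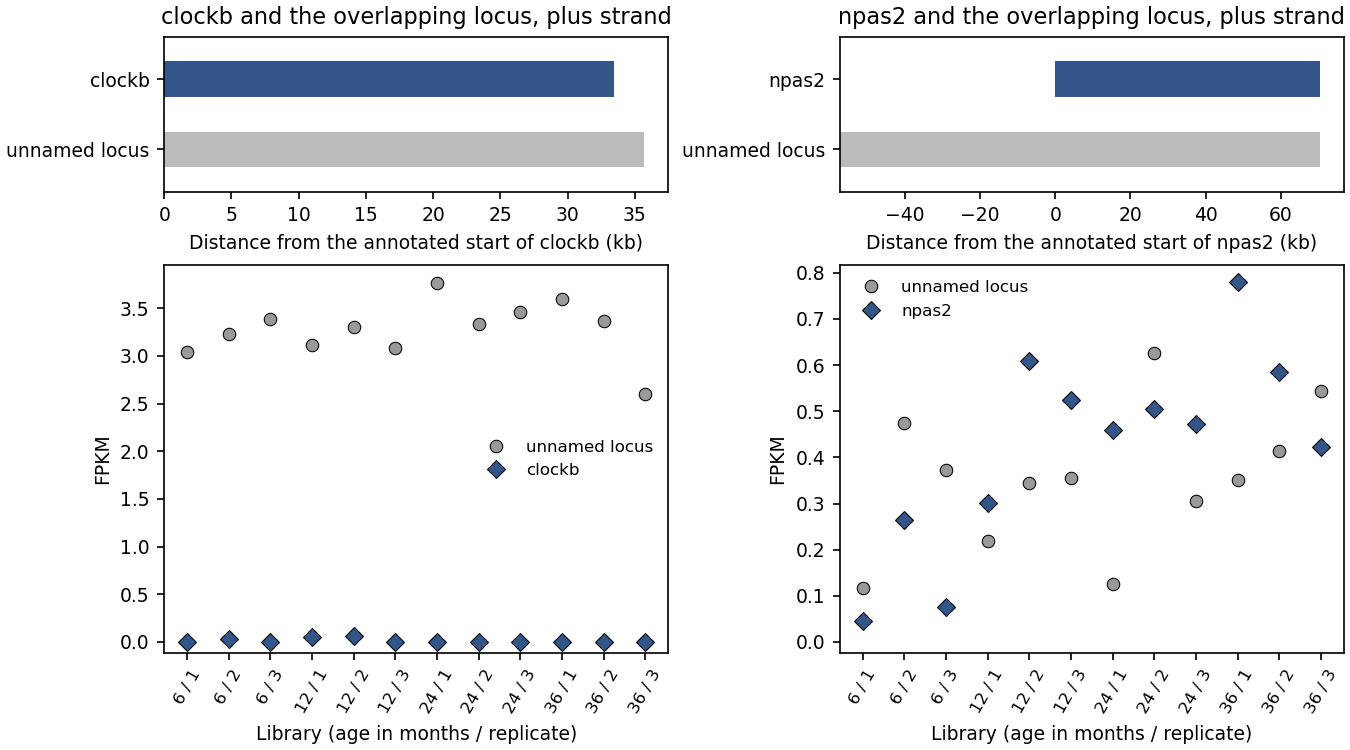
Top, position of clockb (left) and npas2 (right) and of the unnamed locus on the same strand, in kilobases from each gene's annotated start. Bottom, FPKM of the gene (diamonds) and of the locus (circles) in the 12 libraries. The locus over clockb lies at 2.60 to 3.76 FPKM while clockb is at or near 0; at npas2 gene and locus are of similar level.

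Of the 6 activators, 4 had a mean of at least 1 FPKM and entered the fit across all genes (limma, 4 age means, Benjamini-Hochberg over 16223 genes). The counts below describe the same levels that were known when the genes were chosen; they are no independent test, and nothing is read from them. In 4 of 4 each 24-month library lay above each other library, beside 1.59% of all genes tested, and in 4 of 4 replicate 1 of 6 months was the lowest, beside 13.3%. Across the 4 ages 2 of the 4 passed an adjusted p of 0.05, beside 5.28% of all genes tested. At 24 against 12 months, limma called 0 of 4, beside 0.715% of all genes; 4 had an unadjusted p under 0.05, and limma voom on the recovered reads called 1. Values did not overlap between these ages in 4 of 4, all higher at 24 months, beside 11.9% of all genes. At 36 against 24 months limma again called 0 of 4 (background 1.12%), with 3 at an unadjusted p under 0.05, 0 by voom, and 4 of 4 lower without overlap (background 13.3%). At 36 against 6 months it called 0 of 4 (background 8.25%), with 1 at an unadjusted p under 0.05 and 0 by voom, and clocka and arntl2 were higher without overlap (background 13.4%). At 24 against 6 months it called 1 of 4 (background 0.709%), with 4 at an unadjusted p under 0.05 and 1 by voom. At 12 against 6 months it called 0 of 4 (background 0.0185%), with 0 at an unadjusted p under 0.05 and 0 by voom. The share of all genes at an unadjusted p under 0.05, or called by voom, is not given here. Those counts therefore have no background.

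These counts changed when single libraries were left out, and most with replicate 1 of 6 months. Without replicate 1 of 6 months, 4 of 4 were called both across the ages (background 10.2%) and at 24 against 12 months (background 1.52%), 1 at 36 against 24 months (background 2.46%) and 3 at 24 against 6 months (background 1.97%). That library is not in the comparisons of 24 with 12 or 36 months and bears on them through the shared estimate of the spread. Across the ages limma called 0 of 4 in 5 omissions, those of replicates 1 and 2 of 12 months, 1 and 3 of 24 months and 3 of 36 months, and 1 to 3 in the other 6. At 24 against 12 months it called 1 without replicate 3 of 12 months. For these other omissions the share of all genes is not given here, so their counts have no background. The difference between 24 and 6 months was also smaller without replicate 1 of 6 months. The ratio of 24 to 6 months was 2.05 for arntl1a, 3.65 for arntl1b, 3.64 for arntl2 and 3.94 for clocka with all libraries. Without that library it was 1.63, 2.60, 2.93 and 3.02 in the same order. In log2(FPKM + 1), the difference of 12 minus 6 months was 0.20 for arntl1a, 0.55 for arntl1b, 0.12 for arntl2 and 0.13 for clocka, and it turned to -0.22, -0.08, -0.07 and -0.11 without that library.

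The proportions of the arntl genes also differed by age, and these are ratios within a library. The summed arntl level was 21.3 ± 11.0 FPKM at 6 months, 23.8 ± 2.74 at 12, 51.5 ± 5.99 at 24 and 31.9 ± 2.03 at 36 months (SD, n = 3 each). Of this sum arntl1a made up 65.5%, 66.6% and 64.8% in the 3 libraries of 24 months, below each of the other 9 libraries, which ran from 71.2% to 86.4%. The share of arntl1b was 26.8%, 27.6% and 27.6% at 24 months, against at most 23.9% elsewhere and 7.96% in replicate 1 of 6 months. The ratio of arntl1a to arntl1b was 10.9, 3.66 and 4.05 in replicates 1, 2 and 3 of 6 months, and averaged 3.51 ± 0.469 at 12, 2.4 ± 0.047 at 24 and 3.40 ± 0.385 at 36 months. The ratio was thus lowest in the age where both genes were highest, and highest in the library where both were lowest. The share of arntl2 was 7.06 ± 1.09% at 24 months and between 4.81% and 5.6% on average at the other ages; its range at 24 months lay above those of 6 and 12 months and overlapped with that of 36 months. These shares come from the levels already described and are given without a test.

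**Figure D3:**
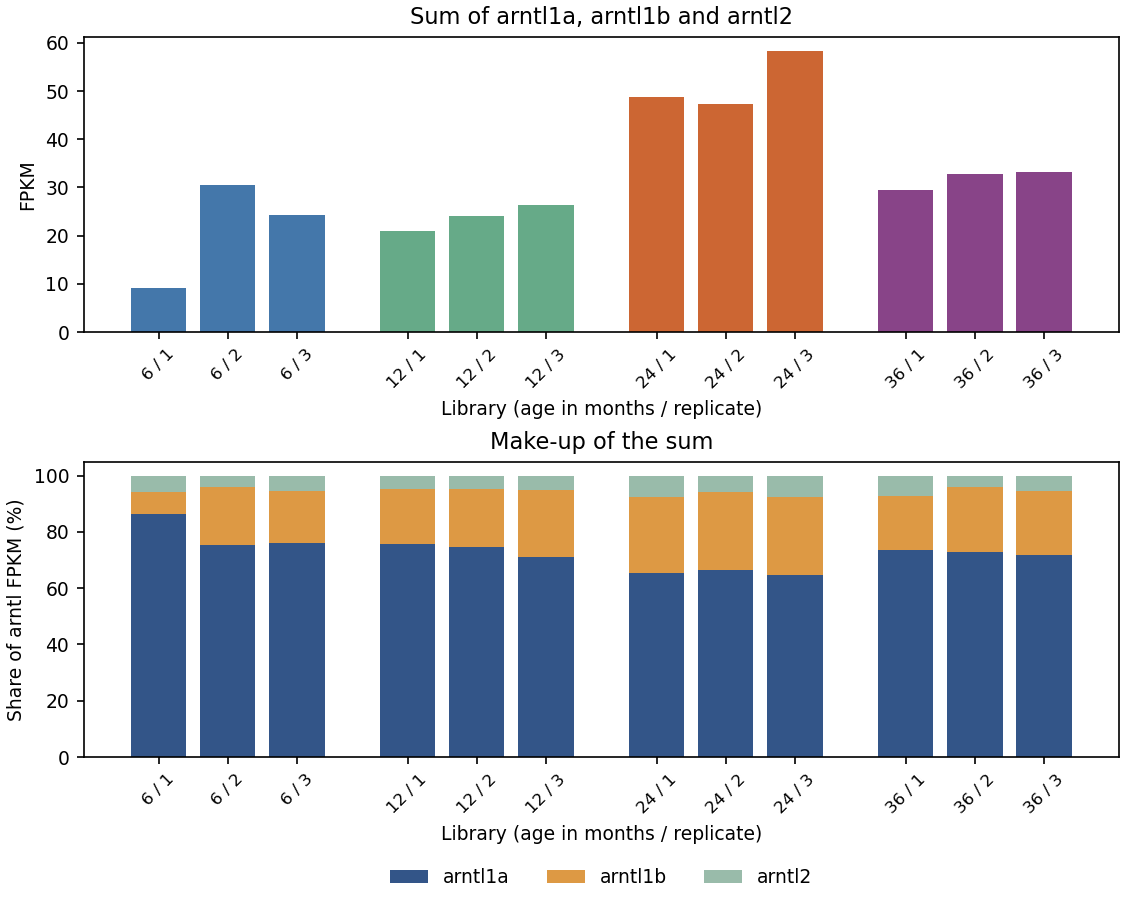
Top, summed FPKM of arntl1a, arntl1b and arntl2 in each of the 12 libraries, coloured by age. Bottom, the percentage of that sum from each gene; arntl1a makes up 64.8% to 66.6% at 24 months and 71.2% to 86.4% in the other 9 libraries.

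Across the 12 libraries the 4 activators above the expression filter varied together. Pearson's r of log2(FPKM + 1) ran from 0.89 (arntl1b with arntl2) to 0.99 (arntl1a with arntl1b) over their 6 pairs, given as a description of values that share library and age. Spearman's rho was 0.97 for arntl1a with arntl1b and 0.89 for arntl1b with arntl2. After the mean of each age was removed, r was 0.99 for arntl1a with arntl1b and 0.60 to 0.78 for the other pairs. Without replicate 1 of 6 months these within-age values were 0.92 for arntl1a with arntl1b, 0.63 to 0.74 for clocka with these, and 0.19 to 0.35 for the pairs of arntl2. The closest pair by each of these measures was arntl1a with arntl1b.

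Other genes were ranked by the likeness of their levels to each activator over the 12 libraries, among 8729 tested genes with an informative symbol. Among the 3 genes most like arntl1a, and likewise among the 3 most like arntl1b, was slco3a1, an organic anion transporter (r = 0.95 and 0.97, or 0.88 and 0.94 without replicate 1 of 6 months). Its level was 35.2 ± 10.8 FPKM at 6 months, 39.8 ± 5.67 at 12, 58.6 ± 3.89 at 24 and 41.8 ± 4.64 at 36 months (SD, n = 3 each), and it did not pass the F test across the ages (limma, adjusted p = 0.139). The 24-month libraries of slco3a1, from 56.0 to 63.1 FPKM, lay above all others. Most like arntl2 were sstr5, a somatostatin receptor (0.96), rcan3, a regulator of calcineurin (0.93), and BICD2 (1 of many), a dynein adaptor (0.91). The level of BICD2 is uncertain because an unnamed locus overlaps it. After the mean of each age was removed, r with arntl2 was 0.73 for sstr5, 0.64 for rcan3 and 0.84 for BICD2. The genes nearest to clocka were tusc2b (0.95), c2cd3, a gene of centriole assembly (0.94), and sstr5 (0.93). Means of tusc2b differed little, with 18.1, 18.5, 22.1 and 19.5 FPKM at 6, 12, 24 and 36 months. This gene did not pass the F test across the ages (limma, adjusted p = 0.339). By the same test sstr5 and rcan3 passed (limma, adjusted p = 0.00366 and 0.00755), though both were picked for their likeness to an activator. The receptor gene sstr5 had 0.358 ± 0.275 FPKM at 6 months, 1.03 ± 0.7 at 12, 7.36 ± 1.81 at 24 and 2.01 ± 0.225 at 36 months.

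At the other end, the gene least like arntl2 was nr1d2b, a Rev-erb repressor of the clock (r = -0.95, and -0.94 without replicate 1 of 6 months). It was followed by the ubiquitin-conjugating enzyme ube2d1a (-0.94) and by pnisr (-0.93), which an unnamed locus overlaps. After the mean of each age was removed, r with arntl2 was -0.64 for nr1d2b, -0.68 for ube2d1a and -0.58 for pnisr. For clocka the lowest were ube2d1a (-0.92), fam92a1 (-0.91) and ctdsp2 (-0.90), the last also overlapped. For arntl1a they were rnaseka (-0.90), cyp2n13 (-0.89) and hax1 (-0.89), and for arntl1b hax1 (-0.90), nudcd3 (-0.89) and cyp2n13 (-0.89). Without replicate 1 of 6 months these values were -0.76, -0.84 and -0.80 for arntl1a, in the same order. For arntl1b they were then -0.82, -0.81 and -0.82. These ranks carry no p-value, since each is the extreme of 8729 genes.

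**Figure D4:**
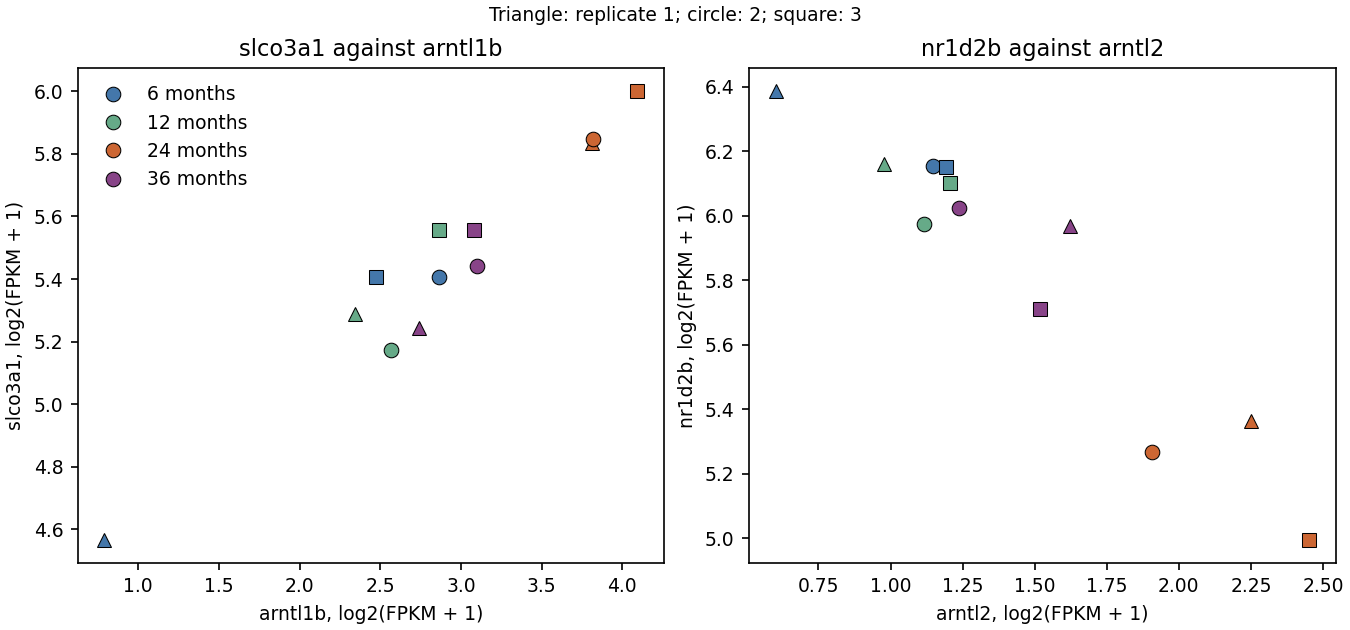
Level of slco3a1 against arntl1b (left) and of nr1d2b against arntl2 (right), both axes in log2(FPKM + 1), 1 point per library, coloured by age with a triangle, circle and square for replicates 1, 2 and 3. On the left the points rise together (r = 0.97) with replicate 1 of 6 months at the low end; on the right they fall (r = -0.95) with the 24-month libraries lowest in nr1d2b.

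The repressors and outputs of the clock are not among the 6 genes, and were set beside the same background. Their lists were also chosen with earlier results of these data known, so their calls are no independent test. Of 92 symbols in 5 lists, 82 matched and 38 were tested; of the 44 matched but not tested, 34 are overlapped on the same strand by an unnamed locus. Across the 4 ages 7 of 38 were called, beside 5.28% of all genes. They were per3, cry2, nr1d1, nr1d2b, nr1d4b, ciarta and crebbpb. Without replicate 1 of 6 months 13 of 38 were called, beside 10.2% of all genes.

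The Rev-erb and ROR genes act on arntl transcription, and nr1d2b and nr1d4b among them moved in opposite directions at 24 months. At 24 against 12 months, 4 of the 38 clock genes were called, 1 higher and 3 lower, beside 0.487% of all genes higher and 0.228% lower. The repressor nr1d2b fell to 40.2, 37.6 and 30.9 FPKM at 24 months, against 70.5, 61.9 and 67.6 at 12 months (log2 difference -0.87 ± 0.14, ± SE; limma, adjusted p = 0.0225). The groups did not overlap, and at 36 months it was back at 61.6, 64.0 and 51.4 FPKM (0.69 ± 0.14 above 24 months; limma, adjusted p = 0.0423). The call at 36 against 24 months ended with no filter (limma, adjusted p = 0.0519), quantile normalization (0.052), voom (0.101) and a fit of those ages alone (0.0706), and that at 24 against 12 months with voom (0.0545). Its relative nr1d4b, another Rev-erb family gene of fish, rose to 7.67, 12.1 and 4.88 FPKM at 24 months, against 0.578, 1.05 and 1.48 at 12 months (log2 difference 2.12 ± 0.33; limma, adjusted p = 0.0225). It was 1.69 ± 0.33 lower at 36 than at 24 months (limma, adjusted p = 0.0427). For nr1d4b the call at 36 against 24 months ended with a pseudocount of 0.1 (limma, adjusted p = 0.0912), no filter (0.0706) and voom (0.0715), and that at 24 against 12 months with no filter (0.0545) and a fit of those ages alone (0.0513). Among the tested genes of this list that were not called at 24 against 12 months, nr1d4a and rorcb had their highest mean at 24 months, 2.78 and 13.5 FPKM, and rorab its lowest, 12.2 FPKM. The 24-month range of rorcb overlapped with those of 6 and 12 months. That of rorab overlapped with those of 6 and 36 months, where its mean was 12.8 FPKM at 36 months. The 24-month libraries of nr1d4a lay above all others. These 3 were picked after their values were seen. Of the 7 tested in this list, 2 were called at 24 against 12 months and 2 at 36 against 24 months (background 0.715% and 1.12%). The list's medians were -0.30 and -0.10 on the log2 scale, beside -0.0012 and 0.01 for all genes.

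The first Rev-erb gene, nr1d1, had no dip at 24 months alone. Its level was 93.8, 57.7 and 49.9 FPKM at 6 months, 36.9, 31.3 and 25.6 at 12 months, 16.7, 10.4 and 10.8 at 24 months and 12.4, 12.7 and 9.63 at 36 months. Each age lay below the one before it up to 24 months, and the ranges of 24 and 36 months overlapped. The difference of 36 minus 6 months was -2.39 ± 0.25 on the log2 scale (limma, adjusted p = 0.00113), and that of 24 minus 12 months, -1.26 ± 0.25, did not pass (limma, adjusted p = 0.0519).

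Of the period and cryptochrome genes, some of whose products inhibit the activator pair, 8 were tested and 2 called across the ages (background 5.28%). The period gene per3 fell to 3.51, 3.54 and 2.93 FPKM at 24 months, against 12.0, 8.83 and 8.21 at 12 months (log2 difference -1.29 ± 0.18; limma, adjusted p = 0.0154). At 36 months it rose to 11.4, 15.2 and 13.1 FPKM (1.71 ± 0.18 above 24 months; limma, adjusted p = 0.00203). An unnamed locus overlaps per3 on the same strand, which makes its level uncertain. The cryptochrome gene cry2 had 22.6, 21.4 and 21.2 FPKM at 24 months and 27.6 to 33.5 in the other 9 libraries, and it passed the F test across the ages (limma, adjusted p = 0.0449). By pair it did not pass, at 24 against 12 months (limma, adjusted p = 0.0727) or at 36 against 24 months (limma, adjusted p = 0.0537). The call of cry2 across the ages ended in 10 of 12 omissions of a single library, all but those of replicate 1 of 6 months and replicate 1 of 36 months (limma, adjusted p from 0.0326 to 0.124). It also ended with no filter (limma, adjusted p = 0.058), quantile normalization (0.0634) and voom (0.109). The list's median was -0.29 at 24 against 12 months and 0.26 at 36 against 24 months, beside -0.0012 and 0.01 for all genes. In each of these 1 of 8 was called (background 0.715% and 1.12%). Both medians include cry5 and cry-dash, whose action on the activator pair was not examined. At 24 against 12 months these were at -0.66 and -0.72, while cry1ab and cry1bb were at 0.14 and 0.48. At 36 against 24 months they were at 0.61 and 0.75, while per2, cry1ab and cry1bb were at -0.18, -0.76 and -0.16. Medians without cry5 and cry-dash are not given here.

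Among 8 tested output genes (the PAR bZIP factors, nfil3, bhlhe41 and ciarta), ciarta alone was called. It encodes a repressor of the activator pair known from mammals as CHRONO. It fell to 14.4, 8.85 and 10.7 FPKM at 24 months, against 34.7, 33.8 and 25.4 at 12 months (log2 difference -1.40 ± 0.24; limma, adjusted p = 0.0299). At 36 months it was at 16.1, 17.4 and 11.2 FPKM, against 53.8, 33.9 and 33.9 at 6 months (-1.37 ± 0.24; limma, adjusted p = 0.01). Ranges of 24 and 36 months overlapped. The call of ciarta at 24 against 12 months ended with no filter (limma, adjusted p = 0.0644), and that at 36 against 6 months with a fit of those ages alone (0.0513). The list's median was 0.09 at 24 against 12 months and -0.22 at 36 against 6 months, beside -0.0012 and 0 for all genes. In each of these and across the ages 1 of 8 was called (background 0.715%, 8.25% and 5.28%).

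The lists of modulators and of other bHLH-PAS genes held few calls. The coactivator gene crebbpb, whose product is a histone acetyltransferase, was at 18.6, 20.9 and 20.1 FPKM at 36 months, against 11.1, 11.4 and 10.4 at 6 months (log2 difference 0.80 ± 0.10; limma, adjusted p = 0.00297). The ubiquitin ligase gene fbxw11b, overlapped by an unnamed locus, was 0.48 ± 0.13 higher at 36 than at 6 months (limma, adjusted p = 0.0423). That call ended in 10 of 12 omissions of a single library, all but those of replicate 3 of 12 months and replicate 2 of 36 months (limma, adjusted p from 0.048 to 0.129). It also ended with no filter (limma, adjusted p = 0.0615) and with a fit of those ages alone (0.158). Of 11 modulators tested, 2 were called at 36 against 6 months (background 8.25%) and 0 by limma at 24 against 12 months (background 0.715%). At 24 against 12 months 5 had an unadjusted p under 0.05 and voom called 0. Of 4 other bHLH-PAS genes, relatives of the activators, limma called 0 in each comparison (background 0.0185% to 8.25%). At most 1 had an unadjusted p under 0.05, and voom called 0. In all, 4 of 38 clock genes were called at 36 against 6 months, 2 higher and 2 lower (background 3.95% and 4.3%), and 3 at 36 against 24 months, 2 higher and 1 lower (background 0.481% and 0.635%). At 12 against 6 months limma called 0 of 38 (background 0.0185%), with 4 at an unadjusted p under 0.05 and 0 by voom. Here too the counts at an unadjusted p under 0.05 and by voom have no share of all genes beside them.

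Calls in comparisons with 24 months depended on single libraries. At 24 against 12 months those of per3, nr1d2b and ciarta were lost in 5 omissions, those of replicates 1 and 2 of 12 months and of each 24-month library. That of nr1d4b was lost in 4 of these 5, and held without replicate 3 of 24 months. Over the 12 omissions of a single library, the limma adjusted p ran from 0.0102 to 0.0845 for per3, from 0.0139 to 0.115 for nr1d2b, from 0.0174 to 0.114 for nr1d4b and from 0.0139 to 0.131 for ciarta. At 36 against 24 months per3 was called in 12 of 12 omissions. There nr1d2b lost its call in 9, which left out any library but replicates 1 and 2 of 6 months and 3 of 12 months (limma, adjusted p from 0.0265 to 0.136). The call of nr1d4b ended in 7, without replicates 1 or 2 of 12 or 24 months or any library of 36 months (limma, adjusted p from 0.0341 to 0.139). Between 36 and 6 months nr1d1, ciarta and crebbpb were called in 12 of 12 omissions.

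**Figure D5:**
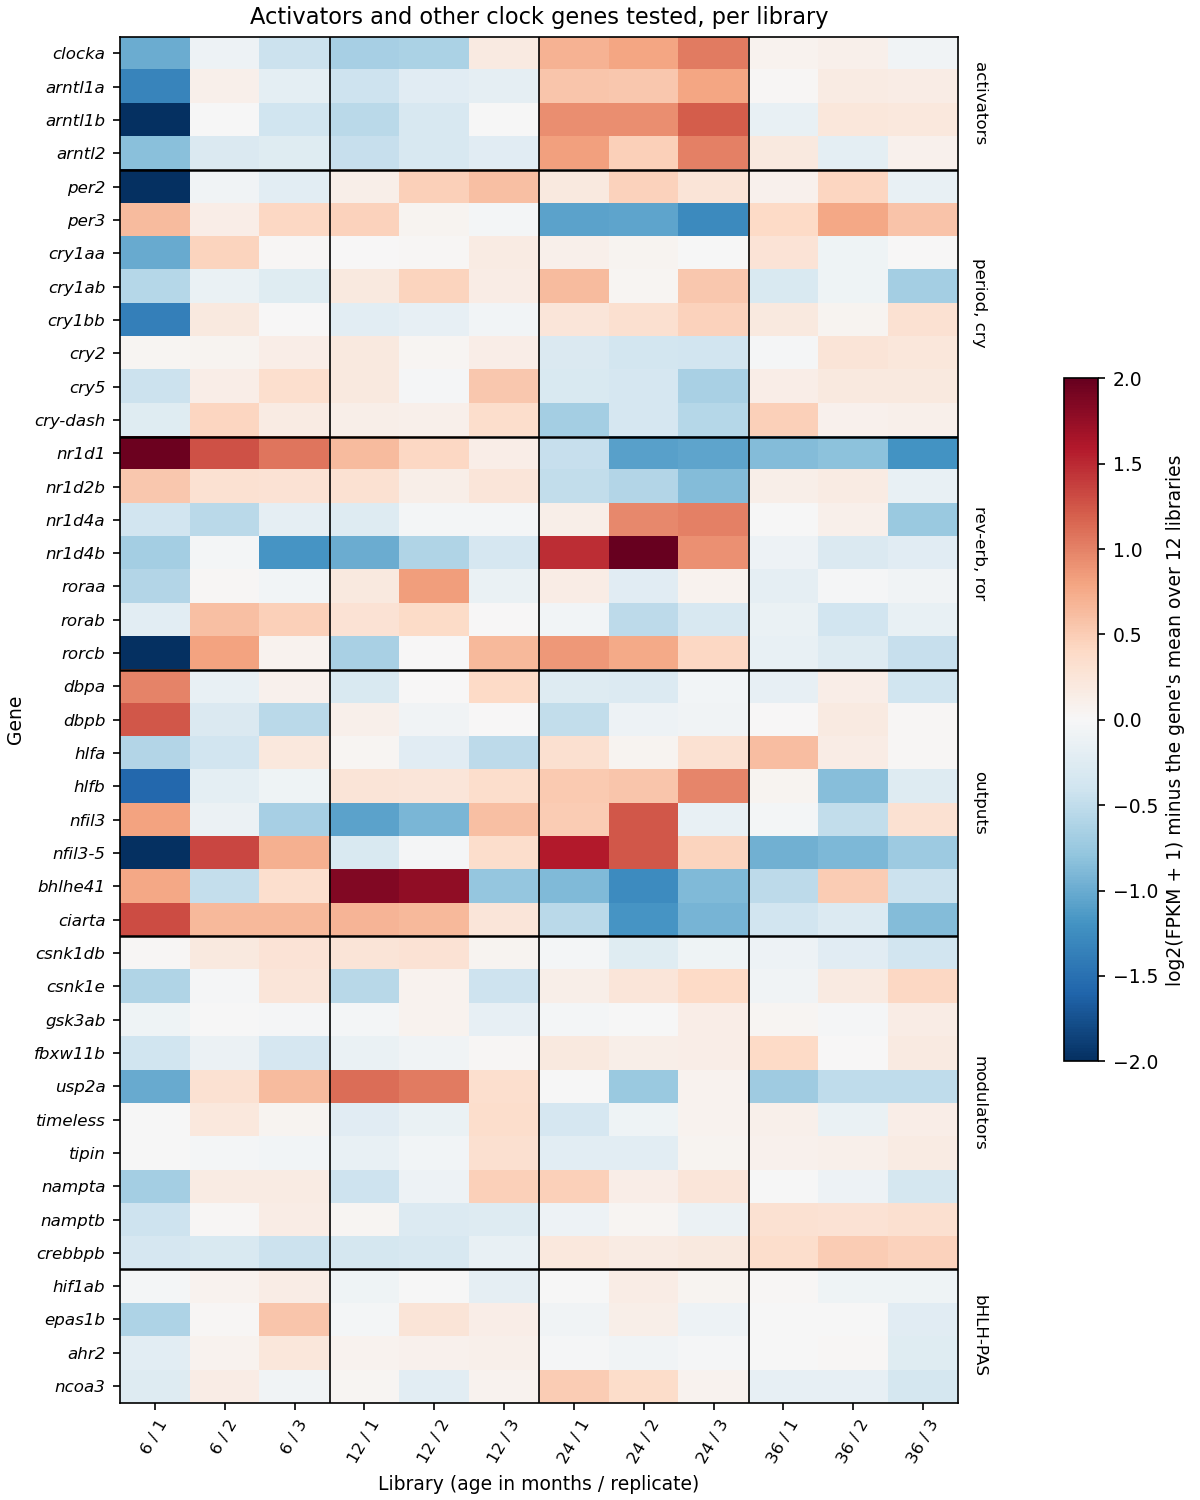
Log2(FPKM + 1) minus the gene's mean over the 12 libraries, for the 4 activators tested (top) and most of the other clock genes tested (rows, by list). Libraries are in columns by age and replicate, and colours end at 2 in either direction. The activators are high (red) in the 3 libraries of 24 months, where per3, nr1d2b and ciarta are low (blue), and replicate 1 of 6 months is low for arntl1a, arntl1b, arntl2 and clocka.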

How the data were processed

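Total RNA was taken from zebrafish hearts with Trizol and sequenced on an Illumina instrument, per the labels' protocols. Per the submitters' processing notes, CASAVA 1.8 and HISAT2 2.0.5 were used with the GRCz11 build; the counting tool and annotation release are not given in the sources used here. The deposited values are FPKM made by the authors, in one table per age, used here on their deposited scale. Multiplied by gene length they gave whole reads for 100% of values (within 0.01 read), and from these the reads per library.

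A gene was tested if its average over the 12 libraries reached 1 FPKM, which left 16223. The test was limma 3.58.1 in R 4.3.3 on log2(FPKM + 1), with 4 age means, trended eBayes, 8 residual degrees of freedom, two-sided contrasts of older minus younger, Benjamini-Hochberg adjustment over all genes and a threshold of 0.05. The procedure was also run on simulated data, with independent normal noise and the same spread for a gene in all 12 libraries. Those data held no library that stands apart, so they do not cover that case, and the result is not given here. The 6 genes, the clock lists and the tests were chosen with earlier results of these data known. Named were the 6 genes, up to 4 genes per clock list with the smallest p among those called in the F test and in each pairwise comparison, and the 3 genes with the highest and the 3 with the lowest Pearson r to each activator tested; some genes that this rule names are not reported here. The settings varied were the pseudocount (0.1), the filter (none, or an average of 5 FPKM), the scaling (quantile, median-ratio), voom on recovered reads, a block for the replicate number, a fit of the compared ages alone, and the omission of each library. Python 3.11.15, numpy 2.4.6, pandas 2.3.3 and, for plots, matplotlib 3.10.9 served for the rest. Promoter and protein sequences were not used here.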

Additional observations from a re-analysis of the deposited data

How the results depend on the processing

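For the activators, the number called across the 4 ages (2) was 1 with a pseudocount of 0.1, 4 with voom, and 0 with no filter, with a minimum mean FPKM of 5 (which leaves arntl1a and arntl1b) or with the replicate block. At 24 against 12 months (0) it was 1 with quantile normalization, 1 with voom and 2 with only the ages compared; at 36 against 24 months (0) it was 1 with only the ages compared. Over single omissions it ran from 0 to 4 across the ages, 0 to 4 at 24 against 12 months, and 0 to 1 at 36 against 24 months. For the other clock genes, the count at 24 against 12 months (4) was 2 with no filter. At 36 against 24 months (3) it was 1 with no filter, 1 with voom and 1 with the replicate block. At 36 against 6 months (4) it was 2 with only the ages compared. Single omissions gave 6 to 13 across the ages, 0 to 6 at 24 against 12, 1 to 7 at 36 against 24 and 3 to 7 at 36 against 6 months. Leaving out replicate 1 of 6 months gave 13, 6, 7 and 7 calls in these 4 comparisons. The share of all genes tested then called was 10.2%, 1.52%, 2.46% and 12.9%, in the same order. For the other settings and omissions the share of all genes is not given here, so those counts have no background. At 24 against 12 months 0 were called when replicate 1 or 2 of 12 months or 1 or 2 of 24 months was omitted, and 1 when replicate 3 of 24 months was. At 36 against 24 months 1 was called in each omission of replicates 1 and 2 of 12 months, 1 and 2 of 24 months and any of 36 months. Leaving out clock genes overlapped by an unnamed locus, an alternative chosen after seeing the data, gave 6, 3, 2 and 3 calls across the ages, at 24 against 12, 36 against 24 and 36 against 6 months. The block is by replicate number. With it the calls of cry2 across the ages (limma, adjusted p = 0.1), nr1d2b and nr1d4b at 36 against 24 months (0.0626 and 0.0676) and fbxw11b at 36 against 6 months (0.0812) were lost. Deviations from the age means correlated, in the 18 pairs of libraries that share a number, from -0.154 to 0.106, with 1 pair over 0.1. Pairs with different numbers were not set beside them. Whether libraries with the same number share anything more therefore cannot be told. The cause of each change was not tested, other than the fewer genes or libraries that a setting leaves. Few reads per library were assigned to npas2 and clockb, and an unnamed locus overlaps each on the same strand. As described above, the level of npas2 is therefore uncertain and that of clockb unknown.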
